A study of Mus musculus with 6 samples.

Results

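The elastic fibre and fibulin genes are a group of 10 genes that encode the elastin core of the fibre, its fibrillin scaffold, the fibulins that organise it and the enzyme that cross-links it. They were chosen by gene name from a table of 54532 genes, and each name matched 1 row. All 10 are among the 14246 genes that passed the filter on low counts, Efemp1 only through the induced libraries. The group was put together with the difference between induced and control cells already known, so its values are given as a description and without a p-value, and nothing is supported with them.

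RNA was sequenced from immortalized epicardium cardiosphere-derived cells (iECDCs) of C57BL/6 mice. The labels give heart ventricle as the tissue, and the methods describe a line grown from the epicardium of 6-week-old mice. Both groups carry a lentiviral human telomerase transgene (hTERT, driven by the CMV promoter), were selected with puromycin and were used at passage 30. The 3 control libraries are labelled as iCDCs at passage 30, and the 3 induced libraries come from cells given 10 µM 5-azacytidine (5-aza, an inhibitor of DNA methylation) for 3 days and then kept for 4 weeks in IMDM with 2% serum. The methods describe such an induction with another medium and a shorter culture, and neither source states the medium or the time in culture of the sequenced controls, so drug, serum and time cannot be told apart. The methods speak of biological replicates, though fewer per condition than the libraries here, while the study's figure legend for this comparison gives n = 3. The labels speak of separate samples. None of these sources names separate cultures, so the spread between libraries may be technical.

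Elastic fibres give arteries, valves and the outer layers of the heart their recoil. Cells secrete tropoelastin, which gathers on microfibrils made of fibrillins, and lysyl oxidase then joins its lysines into a permanent network. Fibulins are secreted glycoproteins with rows of calcium-binding EGF-like modules, of which the short ones help to bring elastin, microfibrils and the cross-linking enzyme together.

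The libraries held 19041133 to 19823369 counts, of which the 10 genes took 0.570% to 0.651%. Levels are TMM-scaled CPM (counts relative to the library size), given as mean ± SD over 3 libraries, and differences are log2 fold changes with their standard error (SE) from edgeR's quasi-likelihood fit over all genes tested. A call means a Benjamini-Hochberg adjusted p under 0.05 in that fit. Of the surface markers by which the study describes the cells, looked up after the files were seen, Eng stood at 360.3 ± 0.329 and 393 ± 13.0 CPM and Thy1 at 113 ± 2.04 and 164 ± 9.58 CPM in control and induced cells (SD, n = 3).

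Between induced and control cells the 10 genes did not move as one. Elastin (Eln), fibulin 5 (Fbln5), fibulin 7 (Fbln7) and fibulin 3 (Efemp1) were higher in induced cells by 4-fold or more, and fibrillin 1 (Fbn1) was 1.23-fold higher. Fibulin 2 (Fbln2), fibulin 4 (Efemp2) and lysyl oxidase (Lox) were lower by less than 2-fold, and fibulin 1 (Fbln1) and fibrillin 2 (Fbn2) were not called. Of the 10 genes, 5 were called higher, where 32.6% of all genes tested were, and 3 were called lower, where 32.2% were. Called differences of 2-fold or more upward were found for 4 of the 10 genes (9.29% of all genes tested), all of them 4-fold or more (4.11%), and downward for 0 of the 10 (7.83%). These counts were part of the choice of the genes and nothing is read from them. The libraries of the groups did not overlap for 5 genes that were higher (34.1% of all genes tested) and for 2 that were lower (34.5%), or 68.6% of all genes tested in either direction. The median log2 fold change was 0.15 over the 10 genes and -0.01 over all genes tested. In whole-culture RNA, fewer cells that express a gene and less of its RNA per cell cannot be told apart.

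**Figure D1:**
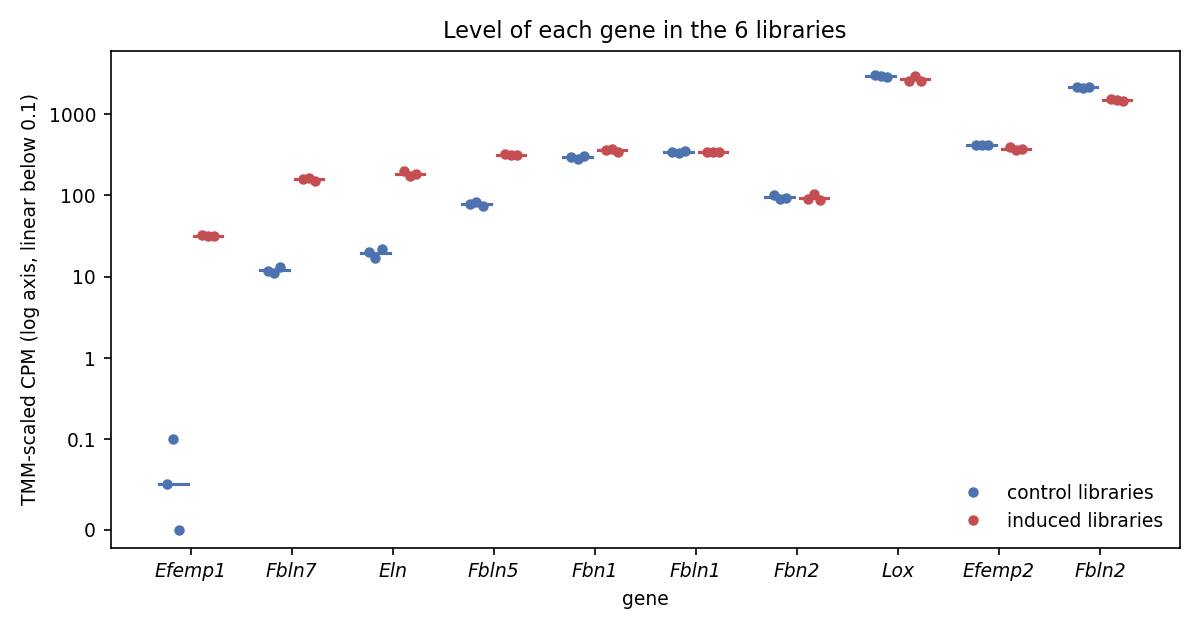
TMM-scaled CPM of the 10 genes (vertical axis, logarithmic above 0.1 and linear below) in each of the 3 control (blue) and 3 induced (red) libraries, with a bar at each group's mean. Efemp1, Fbln7, Eln and Fbln5 stand clearly apart between the groups, while Fbln1, Fbn2 and Lox overlap.

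The core of the fibre is elastin, the protein that stretches and recoils. Eln (ENSMUSG00000029675, chromosome 5, 134702593 to 134747323, minus strand, GRCm38) stood at 20.3, 16.9 and 21.7 CPM in control libraries 1, 2 and 3 and at 197, 172 and 183 CPM in induced libraries 1, 2 and 3. Every induced library was above every control library. The mean went from 19.6 ± 2.45 to 184 ± 12.9 CPM (SD, n = 3), a log2 fold change of 3.23 (SE 0.08) or 9.37-fold. Apart from Efemp1, Eln had the highest coefficient of variation of the 10 genes among control libraries, 12.5%, with control library 2 the lowest. The mature protein is encoded by many alternatively spliced exons, which counts per gene do not resolve. Of its annotated exon bases, 3.30% also lie in the antisense gene Gm30003, and the strand setting of the counting is not given in the sources used here.

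Fibrillins form the microfibrils on which elastin is laid down, and Fbn1 is the gene mutated in Marfan syndrome. Fbn1 (ENSMUSG00000027204, chromosome 2, 125300594 to 125507993, minus strand) had 301, 282 and 301 CPM in control libraries and 366, 374 and 344 CPM in induced libraries. The groups did not overlap, yet the difference was small, with means of 295 ± 10.8 and 361 ± 15.8 CPM (SD, n = 3) and a log2 fold change of 0.29 (SE 0.05). Gm9913, annotated on the opposite strand, covers 20.1% of the exon bases of Fbn1, and reads from these bases could come from either gene. Fbn2, which is known as the fibrillin of developing tissue, lies on chromosome 18 (ENSMUSG00000024598, 58008623 to 58209926, minus strand). It had 101, 90.4 and 92.9 CPM in control libraries and 89.8, 103 and 87.4 CPM in induced libraries. The groups overlapped, and the log2 fold change of -0.02 had a 95% interval of -0.16 to 0.12. Per length of gene, Fbn1 was 2.69 ± 0.116 times as high as Fbn2 in control and 3.35 ± 0.203 times in induced cells (SD, n = 3). The deposited length of Fbn2, 10480 bases, is shorter than its exon bases in GENCODE M21, 13215, with which these ratios would be 3.39 ± 0.147 and 4.22 ± 0.256.

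The short fibulins are the members tied most closely to elastin assembly. Fibulin 5 binds tropoelastin and cell-surface integrins. Fbln5 (ENSMUSG00000021186, chromosome 12, 101746565 to 101819055, minus strand) had 77.5, 82.0 and 73.2 CPM in control libraries and 321, 315 and 309.6 CPM in induced libraries. These values lay far apart between the groups, with a log2 fold change of 2.02 (SE 0.05) or 4.06-fold. Fibulin 4 brings lysyl oxidase to tropoelastin. Its gene Efemp2 (ENSMUSG00000024909, chromosome 19, 5473973 to 5481853, plus strand) had 419, 411 and 417 CPM in control libraries and 392, 362 and 373 CPM in induced libraries. The induced libraries were all lower, by a log2 fold change of -0.15 (SE 0.04). The genes of chromosome 19 stood higher in induced cells as a whole, with a median log2 fold change of 0.17 over 488 genes tested. Antisense exons of Mus81 cover 4.57% of the exon bases of Efemp2.

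Fibulin 3, known for its deposits beneath the retina in an inherited eye disease, is encoded by Efemp1 (ENSMUSG00000020467, chromosome 11, 28853204 to 28926743, plus strand). It was near the limit of detection in control cells, with 1, 2 and 0 reads in control libraries 1, 2 and 3, where a count of 0 allows up to 0.151 CPM in library 3. In induced libraries it had 608, 602 and 602 reads, or 32.3, 31.7 and 31.6 CPM. The ratio of pooled reads was 629.6, with a 95% exact binomial interval of 215 to 3056 that covers counting error only. Among induced libraries Efemp1 was the least variable short fibulin, with a coefficient of variation of 1.29%, against 1.78% for Fbln5 and 4.06% for Efemp2.

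Of all fibulins, Fbln2 had the highest level per length. The protein is a large fibulin of valve and vessel matrix that binds fibronectin and tropoelastin. Fbln2 (ENSMUSG00000064080, chromosome 6, 91212455 to 91272540, plus strand) had 2139, 2099 and 2139 CPM in control libraries and 1524, 1496 and 1455 CPM in induced libraries. The groups were well apart, and the fall of 29.8% (log2 fold change -0.51, SE 0.04) was the largest downward difference of the 10 genes. Fbln7, a smaller fibulin known as an adhesion protein of tooth and cartilage, went the other way. It lies on chromosome 2 (ENSMUSG00000027386, 128862981 to 128897034, plus strand) and had 11.8, 11.0 and 13.2 CPM in control libraries and 161, 162 and 151 CPM in induced libraries. This is a log2 fold change of 3.72 (SE 0.07) or 13.2-fold.

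Fbln1, a matrix protein of valves and basement membranes, is on chromosome 15 (ENSMUSG00000006369, 85205949 to 85286535, plus strand). It had 342, 328 and 348 CPM in control libraries and 344, 344 and 339 CPM in induced libraries. The groups overlapped, with a log2 fold change of 0.01 and a 95% interval of -0.08 to 0.11. The genes of chromosome 15 stood lower in induced cells as a whole, with a median log2 fold change of -0.24 over 561 genes tested, and 70.8% of them had a lower value than Fbln1. Its 3 tested neighbours within 250 kb were all called lower, with log2 fold changes of -0.52 to -0.34. On chromosome 15 as a whole, 51.3% of genes tested were called lower, where 32.2% of all genes tested were. Fbln1 has isoforms with different ends, which were counted together.

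Lysyl oxidase oxidises lysines of elastin and collagen so that the chains can be cross-linked. Lox (ENSMUSG00000024529, chromosome 18, 52516069 to 52529867, minus strand) had the highest level per length of the 10 genes, with 3002, 2952 and 2883 CPM in control libraries and 2575, 2942 and 2541 CPM in induced libraries. Induced library 2 lay within the range of the control libraries, while induced libraries 1 and 3 lay below it. The log2 fold change of -0.13 (SE 0.05) was called, but the call was lost when control library 1 (-0.11), control library 2 (-0.13), induced library 1 (-0.10) or induced library 3 (-0.09) was left out. Without induced library 2 it was -0.20 and was called. Induced library 2 differed most from its group, with a chi-square per degree of freedom of 8.91 and 8.04 against induced libraries 1 and 3, which differed from each other by 4.68. Fbn2, also on chromosome 18, was highest among induced libraries in library 2 as well. In that library Lox and Fbn2 stood 0.20 and 0.22 above the mean of the other induced libraries on the log2 scale. The median gene of chromosome 18 stood 0.048 above it, and so nearly did that of chromosome 1, at 0.045.

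**Figure D2:**
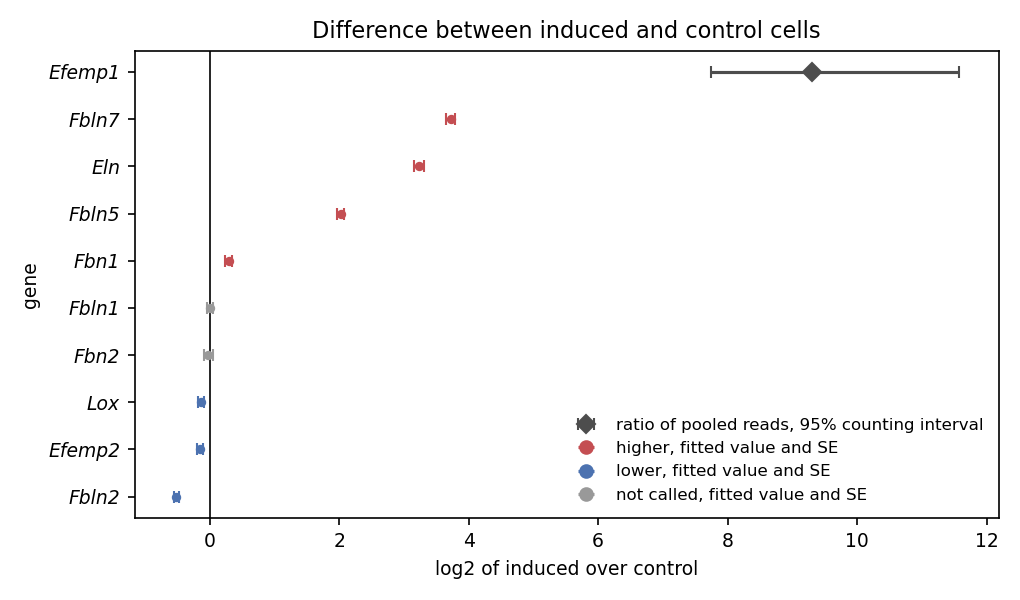
Log2 of induced over control for each of the 10 genes (horizontal axis), with the fitted value and its SE for 9 genes and the ratio of pooled reads with its 95% counting interval for Efemp1. Values run from -0.51 for Fbln2 to 3.72 for Fbln7, and Efemp1 lies above all of them with the widest interval.

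Levels of different genes were compared as CPM per kb of deposited gene length. In control cells the order was Lox (612 ± 12.5), Fbln2 (334 ± 3.65), Efemp2 (157 ± 1.64), Fbln1 (77.7 ± 2.41), Fbn1 (24.3 ± 0.894), Fbln5 (11.2 ± 0.637), Fbn2 (9.04 ± 0.531), Fbln7 (3.71 ± 0.348), Eln (2.42 ± 0.303) and Efemp1 (0.0250 ± 0.0250; SD, n = 3). In induced cells the first 4 kept their places, with Lox at 558 ± 46.2, Fbln2 at 234 ± 5.45, Efemp2 at 142 ± 5.76 and Fbln1 at 78.4 ± 0.705. They were followed by Fbln7 (48.9 ± 1.94), Fbln5 (45.6 ± 0.811), Fbn1 (29.8 ± 1.30), Eln (22.7 ± 1.59), Efemp1 (15.6 ± 0.202) and Fbn2 (8.93 ± 0.827; SD, n = 3). No neighbours in either order had overlapping libraries, though Fbln7 and Fbln5 came close in induced cells, where the lowest value of Fbln7 was 46.7 and the highest of Fbln5 was 46.4.

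The summed level of the 10 genes per length changed little, from 1231 ± 14.6 to 1184 ± 47.3 CPM per kb (SD, n = 3), and the groups overlapped. Without Lox, the sum over the other 9 genes was 619 ± 8.83 in control and 626 ± 14.2 in induced cells. Without Lox and Fbln2, the sum over the other 8 genes was 285 ± 5.18 in control and 392 ± 9.002 in induced cells, with no overlap, so the total was near constant only with the lower level of Fbln2 included. Eln was at 0.0996 ± 0.00910 of the level of Fbn1 in control cells and at 0.765 ± 0.0674 in induced cells. For every unit of Eln, Lox stood at 256 ± 35.4 in control and 24.7 ± 3.65 in induced cells, and Fbln5 at 4.70 ± 0.884 and 2.01 ± 0.126 (SD, n = 3).

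The make-up of the fibulin transcripts differed too. Their summed level was 583 ± 7.30 CPM per kb in control cells and 564.5 ± 12.4 CPM per kb after induction, of which Fbln2 held 57.2% ± 0.0973 and 41.5% ± 0.296. The short fibulins summed to 168 ± 1.17 CPM per kb in control and 203 ± 6.50 CPM per kb in induced cells, with no overlap. Of this larger sum Efemp2, itself at 157 and 142 CPM per kb, held 69.8% ± 0.668 in induced cells, and 93.3% ± 0.424 of the smaller sum in control cells. Fbln5 held 6.67% ± 0.409 and 22.5% ± 0.515, and Efemp1 0.0149% ± 0.0150 and 7.70% ± 0.160 (SD, n = 3). The libraries of the groups did not overlap for any of these shares, which do not depend on how libraries were scaled. They do depend on gene length, and with the GENCODE exon bases of Efemp2 (3788 in place of the deposited 2648) its share would be 90.7% ± 0.572 in control and 61.8% ± 0.748 in induced cells.

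**Figure D3:**
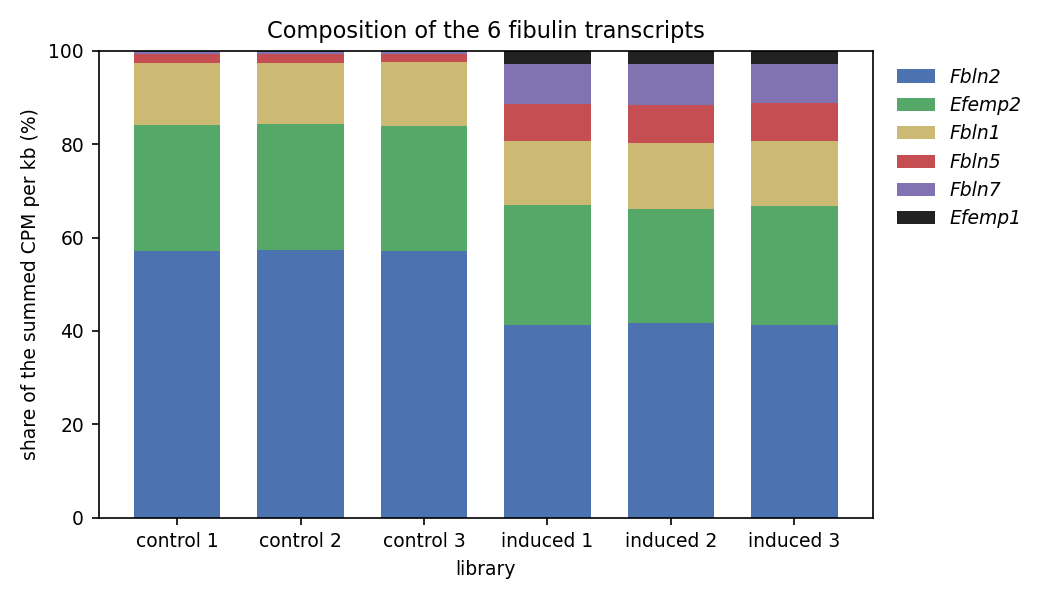
Share of each of the 6 fibulin genes in their summed CPM per kb (vertical axis, percent) in each library. Fbln2 takes 57.2% on average in control libraries and 41.5% in induced libraries, where Fbln5, Fbln7 and Efemp1 become visible.

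Since 5-azacytidine acts on DNA methylation, which in mammals lies mostly on CpG dinucleotides, the letters before the transcript starts were read. The promoter sequences are from RefSeq (GRCm38.p6), which held windows for 7 of the 10 genes, 11 windows in all. Eln, Fbn2 and Lox are not among these. For each window the 250 bases before the start were used, with every CpG written in capitals and the rest in lower case. In Fbn1 and Fbln2 the window lies wholly within annotated exons of the same gene. The window of Fbln7 lies inside the annotated gene, which starts at 128862981, though outside its exons. The other window of Fbln5 and windows 2 and 3 of Efemp2 also lie inside their annotated genes. Efemp1, Fbln7 and Fbln5, which were higher by 4-fold or more, are printed beside Fbln1, which was not called, to show how many CpGs each holds.
Efemp1 (chr11:28852955-28853204, plus strand): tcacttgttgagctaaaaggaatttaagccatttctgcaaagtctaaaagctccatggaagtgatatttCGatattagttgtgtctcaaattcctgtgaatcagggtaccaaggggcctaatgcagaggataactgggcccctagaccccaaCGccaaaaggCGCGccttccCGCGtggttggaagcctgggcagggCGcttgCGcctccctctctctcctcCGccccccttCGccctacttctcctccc
Fbln7 (chr2:128863682-128863931, plus strand): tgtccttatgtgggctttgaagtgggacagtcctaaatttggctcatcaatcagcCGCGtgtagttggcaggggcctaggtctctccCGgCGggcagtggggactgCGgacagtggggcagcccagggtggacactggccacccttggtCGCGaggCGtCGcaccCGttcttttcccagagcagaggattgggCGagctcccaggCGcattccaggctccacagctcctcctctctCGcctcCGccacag
Fbln5 (chr12:101819120-101819369, minus strand): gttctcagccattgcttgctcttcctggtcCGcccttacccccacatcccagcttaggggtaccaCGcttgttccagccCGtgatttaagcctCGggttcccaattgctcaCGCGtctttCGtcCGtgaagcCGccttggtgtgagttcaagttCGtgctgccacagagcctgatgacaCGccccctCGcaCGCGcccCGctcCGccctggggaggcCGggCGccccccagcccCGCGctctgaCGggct
Fbln1 (chr15:85205699-85205948, plus strand): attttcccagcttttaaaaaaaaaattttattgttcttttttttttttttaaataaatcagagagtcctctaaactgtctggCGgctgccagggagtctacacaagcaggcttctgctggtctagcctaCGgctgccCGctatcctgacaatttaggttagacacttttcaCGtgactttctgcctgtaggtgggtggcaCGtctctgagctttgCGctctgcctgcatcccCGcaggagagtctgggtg

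Efemp1 had 10 CpGs in this window, with 62.2% of 32841 windows in the table having fewer. Fbln7 had 14 (70.6% had fewer) and the upstream window of Fbln5 had 21 (83.6% had fewer), while the window of its other start had 6. The printed window of Fbln1 had 7 and its second window 14, the same number as Fbln7. Efemp2 had 15, 27 and 33 in its windows, Fbn1 had 13 and Fbln2 had 8, against a median of 6 over all windows (quartiles 2 and 16). Among genes with a window used, those higher by 4-fold or more had counts of 6 to 21 and the others counts of 7 to 33. The methylation of these bases was not measured.

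**Figure D4:**
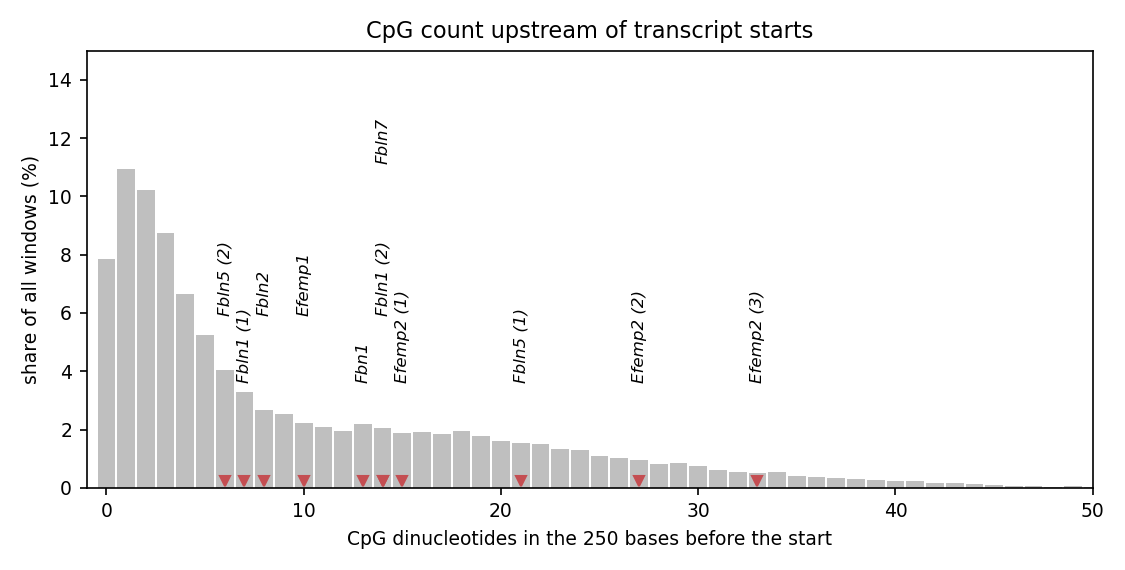
Number of CpG dinucleotides in the 250 bases before the start (horizontal axis) for all RefSeq windows (grey bars, percent of windows), with triangles at the windows of the 7 genes and the window number where a gene has several. The windows of Efemp1, Fbln7 and Fbln5 lie among those of Fbn1, Fbln1, Fbln2 and Efemp2.

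Other letters were searched on both strands. GGGCGG, the core of the GC box, was present in 32.7% of all windows and was found in Efemp1 (1 match), the upstream window of Fbln5 (2), all windows of Efemp2 (2, 5 and 5), Fbn1 (1), Fbln2 (1) and the second window of Fbln1 (1), but not in Fbln7. TGANTCA, where N is any base, was present in 6.75% of all windows and among these 7 genes in Efemp1 alone (1 match). TATAAA was present in 12.4% of all windows and in none of the 11. A match describes letters, not a site in use.

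Genes near the members were examined within 250 kb. The 3 tested neighbours of Efemp1 were not called, with log2 fold changes of 0.02 to 0.09. Fbln5 had 4 tested neighbours between -0.23 and 0.30, with 2 called higher and 1 lower, and Fbln7 had 9 between -0.98 and 0.79, of which 3 were called higher and 2 lower. Of the 7 tested neighbours of Eln, 4 were called lower and 1 higher, between -0.69 and 2.70. Among the neighbours of the other members, 2 of 8 were called higher and 5 lower for Fbn1, 5 and 1 of 8 for Fbln2, 0 and 3 of 3 for Fbln1, 8 and 12 of 25 for Efemp2, and 1 and 0 of 2 for Lox, and neither of the 2 for Fbn2 was called. Of all genes tested, 64.8% were called in one direction or the other.

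Other genes of the pathway came from 4 lists of 65 genes, of which 53 were tested. The lists were chosen with earlier results of these data known, so their counts and p-values are given as a description. By edgeR's quasi-likelihood test with adjustment over all genes tested, 30 were called higher and 14 lower, and the median log2 fold change was 0.41, where 32.6% of all genes tested were called higher and 32.2% lower with a median of -0.01. In the list of microfibril and elastic fibre associated proteins, 12 of 21 tested genes were called higher and 6 lower, with a median of 0.46. Its smallest p-values belonged to latent TGF-beta binding proteins and an ADAMTS-like protein. Ltbp2, which also binds fibulin 5, rose by 3.84 (SE 0.07) in log2 fold change, with 14.1 ± 1.05 CPM in control and 201 ± 16.5 CPM in induced libraries (edgeR adjusted p 1.22e-17). Ltbp1, which stores latent TGF-beta on microfibrils, went down to 10.4 ± 0.169 CPM, against 86.7 ± 3.68 CPM in control libraries, a log2 fold change of -3.07 (SE 0.06, edgeR adjusted p 2.73e-17). Adamtsl2, which binds fibrillin 1, had only 7 reads over the control libraries and rose to 39.2 ± 1.56 CPM. It passed the filter on low counts only through the induced libraries, so no p-value is given for it. The genes in the rest of this paragraph were chosen after their values were seen. Mfap2 and Mfap5, the small glycoproteins that sit on fibrillin microfibrils, were lower, with log2 fold changes of -1.90 and -1.47 (edgeR adjusted p of 9.83e-14 and 3.79e-10). Their mean levels went from 49.97 to 13.4 CPM and from 22.5 to 8.12 CPM. Mfap4, another microfibril-associated protein, rose by 2.61 (edgeR adjusted p 1.54e-08). It had only 61 reads over the control libraries and went from 1.03 to 6.31 CPM. Emilin1 and Emilin2, found where elastin meets microfibrils, were lower too, at -0.54 and -1.09 (edgeR adjusted p of 3.93e-08 and 1.10e-12). Emilin1 went from 467 to 322 CPM and Emilin2 from 343 to 161 CPM. Their relative Mmrn1 was higher at 1.63, but near the limit of detection. It had 26 reads over the control and 78 over the induced libraries, or means of 0.438 and 1.37 CPM. Like Adamtsl2, it passed the filter only through the induced libraries, so no p-value is given for it. Thsd4, an ADAMTS-like protein that binds fibrillin 1, rose by 2.76 (edgeR adjusted p 2.31e-13).

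In the list of cross-linking and secretion, 4 of 13 tested genes were called higher and 5 lower, with a median of -0.06. Pcolce2, an enhancer of procollagen processing, stood at 52.6 ± 2.38 CPM in control and fell to 6.64 ± 0.471 CPM, a log2 fold change of -2.98 (edgeR adjusted p 9.39e-16). Loxl2, a relative of Lox, rose by 1.12 in log2 fold change to 335 ± 10.2 CPM, with 154 ± 5.91 CPM in control libraries (edgeR adjusted p 4.60e-13), and Neu1, a lysosomal sialidase that also takes part in tropoelastin release, from 61.3 ± 1.71 to 138 ± 6.93 CPM (1.17, edgeR adjusted p 1.48e-12). The other relatives of Lox, named after their values were seen, went different ways. Loxl1, the enzyme that renews elastic fibres in adult tissue, rose (log2 fold change 0.30, edgeR adjusted p 1.07e-05), Loxl4 fell (-0.95, edgeR adjusted p 4.65e-10) and Loxl3 was not called (-0.11, edgeR adjusted p 0.107).

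Among elastases and their inhibitors, 9 of 12 tested genes were called higher and 2 lower, with a median of 0.90. The smallest p-values were those of the inhibitors Timp3, which rose by 2.03 in log2 fold change to 2481 ± 118 CPM, with 606 ± 1.08 CPM in control libraries (edgeR adjusted p 3.86e-17), and Cst3, from 1022 ± 27.9 to 4181 ± 482 CPM (2.03, edgeR adjusted p 3.64e-15), followed by the lysosomal protease Ctsd (1.21, edgeR adjusted p 1.63e-14). The other inhibitors, named after their values were seen, went different ways. Timp2 and Slpi were called higher, Timp1 was called lower (log2 fold change -0.71) and Timp4 was not called. Mmp12, the macrophage elastase, had 0 reads in all 6 libraries. Of the integrin receptors, 5 of 7 tested genes were called higher and 1 lower, with a median of 0.45. Itgb5 and Itga8 rose, with log2 fold changes of 1.88 and 4.30 (edgeR adjusted p 5.42e-16 and 9.06e-14), and Itga5, the fibronectin receptor chain, fell, at -0.80 (edgeR adjusted p 1.61e-10).

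**Figure D5:**
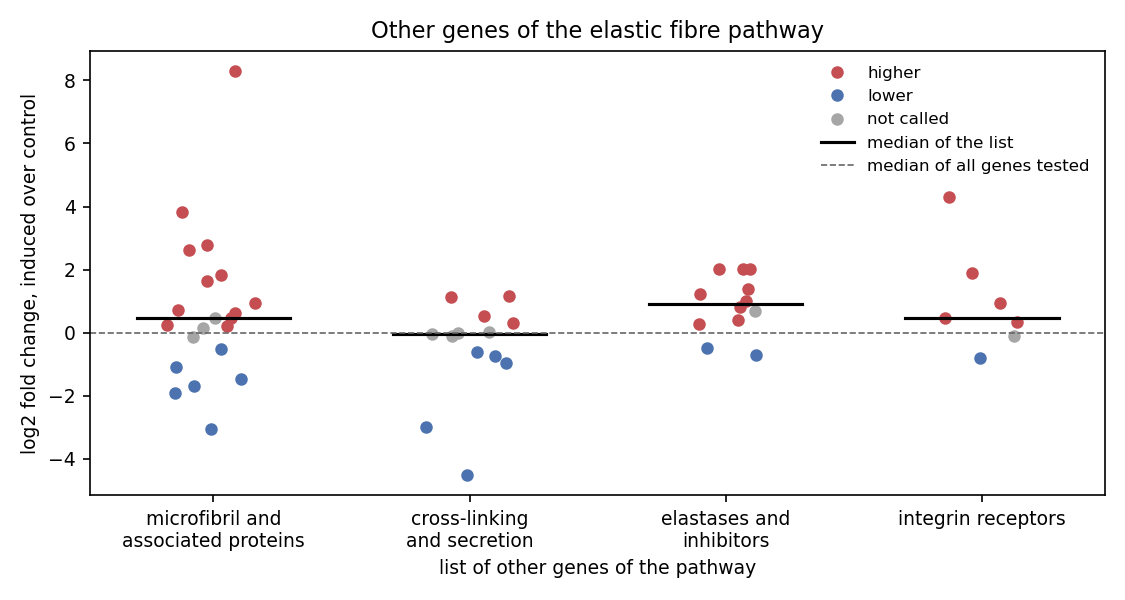
Log2 fold change of the 53 tested genes of the 4 lists (points; red called higher, blue called lower, grey not called), with each list's median as a black line and the median of all genes tested as a dashed line. List medians are 0.46, -0.06, 0.90 and 0.45 from left to right.

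Markers of cell types that could add such transcripts moved to different degrees. Their counts of calls stand beside 32.6% of all genes tested called higher and 32.2% called lower. The mesothelial and epicardial list summed to between 390.4 and 402 CPM in control and between 1204 and 1349 CPM in induced libraries, with 3 of 5 genes called higher and 2 lower. Its most abundant gene was Upk3b, at 254 ± 0.674 CPM in control and 942 ± 62.9 CPM in induced libraries, and Msln and Wt1 were also called higher, whereas Krt19 and Tbx18 were called lower. The fibroblast list summed to between 14946 and 15643 CPM and between 14872 and 16291 CPM, with 3 of 5 higher and 2 lower. Col1a2, its most abundant gene, was called higher (7683 to 9641 CPM) and Col1a1 lower (7440 to 5786 CPM). Dpt and Tcf21 were also called higher and Pdgfra lower. The smooth muscle list summed to between 1029 and 1085 CPM and between 634 and 699.7 CPM, with 2 of 5 higher and 2 lower. Acta2, its most abundant gene, went from 945 ± 30.7 to 490 ± 31.2 CPM. Cnn1 was also called lower, while Myh11 and Smtn were called higher. The cardiomyocyte list went from between 12.8 and 16.1 CPM to between 59.0 and 62.7 CPM through Tnnt2, its most abundant gene (13.1 ± 1.62 and 58.2 ± 1.92 CPM). Of its 2 tested genes, Tnnt2 was called higher and Tnni3 was not called. Of 5 leukocyte markers, Ptprc, Itgam, Cd52 and Tyrobp had 0 reads in all libraries, and the list went from between 1.72 and 2.15 CPM to between 26.2 and 31.8 CPM through Cd68. The endothelial list stayed between 1.21 and 2.31 CPM over all libraries, with Vwf as the single gene tested and not called, and the chondrocyte list, led by Sox9, went from between 16.3 and 17.2 CPM to between 2.83 and 5.10 CPM, with Sox9 the single gene tested and called lower. The part of these shifts in the values of the elastic fibre and fibulin genes was not tested.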

How the data were processed

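RNA-seq of 3 control and 3 induced libraries was analysed from 1 deposited table. The authors deposited raw read counts per gene and library and FPKM (counts scaled by gene length and library size), together with gene lengths and their own fold changes and p-values, which were not used here. The deposited enrichment tables were not used here. The submitters' processing notes name HISAT2 2.0.5, featureCounts 1.5.0-p3 and DESeq2 1.16.1 with the mm10 build, and 98.3% of the genes found in GENCODE M21 (GRCm38) had its coordinates, as did 7 of the 10 members (not Fbn2, Efemp2 and Lox). Reads shared by overlapping or antisense genes may have been split or lost.

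Counts were fitted in R 4.3.3 with edgeR 4.0.16 (filterByExpr, minimum count 10 and total 15; TMM; two-sided quasi-likelihood test by group; Benjamini-Hochberg over 14246 genes; calls at 0.05). The fit was tested on simulated data. It recovered 71 of 99 genes with a true log2 change of 0.5 and 92 of 97 with a change of 1. Of 13546 unchanged genes it called 7. Smaller changes, such as those of Lox and Efemp2, were not simulated. The members and all lists were chosen with earlier results of these data known. Named genes are the members, up to 3 genes per list with the smallest p, and the most abundant marker of each list. Other names were chosen after their values were seen. Alternatives were DESeq2 1.42.0, other scaling, other filters, limma 3.58.1 on log2(FPKM + 1) and log2(FPKM + 0.1), a threshold of 0.01, a replicate block and leaving out each library. Depth was 19041133 to 19823369 counts per library. Within groups the chi-square per degree of freedom between libraries was 2.56 to 8.91. Libraries thus differed by more than counting noise, which cannot tell repeats of one culture from separate cultures.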

Additional observations from a re-analysis of the deposited data

How the results depend on the processing

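The alternatives were compared over the members, Adamtsl2, Mmrn1 and the pathway genes named with a p-value. Of their values, 471 stayed on their side of the threshold, 7 lost the call, 2 gained it and no called value changed sign. The 7 were for Lox: limma on log2(FPKM + 1) and on log2(FPKM + 0.1) (-0.12 in both), the threshold of 0.01, and the libraries named above; the cause was not tested. The 2 were for Loxl3, by library totals (-0.15) and without induced library 1 (-0.17). The sign of the uncalled Fbln1 (-0.02 to 0.04) changed in 2 alternatives and that of Fbn2 (-0.09 to 0.04) in 3, and neither was called in any. Between 7 and 8 of the 10 members were called, 5 higher in each alternative, and 43 to 47 of the pathway genes. Over all genes, 7783 to 9765 were called, with 8514 to 9348 when 1 library was left out, 8593 by DESeq2 and 9063 with the replicate block. The block changed no call of these genes. Same-numbered libraries did not deviate together (correlations -0.00, -0.02 and 0.03). A small effect of a shared culture could go unseen in these values, so they do not settle whether the numbers pair the samples. The deposited FPKM gave summed levels per length of 1220 and 1182 in place of 1231 and 1184, and GENCODE exon lengths, an alternative chosen after seeing the data, 1186 and 1144. In control cells the 3 reads of Efemp1 limit its ratio.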
